A study of Branchiostoma lanceolatum with 6 samples.

Results

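In the amphioxus neurula, 87 of 27073 genes made up the set specific to posterior epidermis. UMIs (unique molecular identifiers, each tagging 1 captured mRNA molecule) were summed over the cells of each annotated type and scaled to 10,000 UMIs of all genes. The genes were chosen by these levels: a gene entered the set when it had at least 50 UMIs in posterior epidermis and a level there over 2 times that of the highest of the 16 other types. Of the 9213 genes that reached 50 UMIs, 0.944% passed. The levels and ratios below therefore describe the set and carry no test. The files, the study's tables and the RefSeq table used here gave a name to 0 of the 87 genes, so they are called by their BLAG identifiers, with no function given.

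The cells came from wild type embryos of the Mediterranean amphioxus, *Branchiostoma lanceolatum*, taken at 21 hours post fertilization (hpf) and raised at 19 °C. Embryos were dissociated and pooled, living cells were sorted into the wells of 40 plates, and their mRNA was counted by MARS-seq. The cell names do not tell the 2 sequenced samples apart, so all 14586 cells were taken as 1 sample without biological replicates, and the matched chromatin accessibility samples were not analysed here. Posterior epidermis held 6546 cells in 82 metacells (small groups of cells with like transcriptomes) and 9568628 UMIs, with a median of 1246 UMIs a cell, against 3189 cells in 37 metacells, 8979736 UMIs and a median of 2061 for anterior epidermis.

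The amphioxus epidermis is a single layer of ectoderm whose cells are mostly ciliated, and at the neurula stage it closes over the neural plate and drives the swimming of the embryo. It is patterned along the anterior-posterior axis: the homeobox gene *Cdx* and the signalling ligand *Wnt1* are posterior genes, whereas *Pax4/6* and the Wnt receptor *Fzd5/8* are anterior. Notch signalling, with its ligand Delta and Hes repressors, selects scattered sensory cells within this sheet.

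The landmark genes were distributed as the label of the cells says, which is no check of the label. The authors assigned metacells by known marker genes. They named *Arpd2*, *Fgfrl*, *Fzd5/8* and *Pax4/6* for anterior and *Cdx* for posterior epidermal cells. They reported *Tmprss15* as enriched in the anterior cells. *Cdx* stood at 1.14 UMIs per 10,000 in posterior epidermis and 0.296 in anterior epidermis, and *Wnt1* at 0.977 and 0.276. The anterior markers *Arpd2*, *Fgfrl*, *Fzd5/8*, *Pax4/6* and the protease gene *Tmprss15* all ran the other way, at 0.204 to 0.494 of their anterior level. None of these markers belonged to the set, to which 0.944% of the 9213 genes belonged. *Cdx* was higher in neural tailbud, at 6.11, and *Wnt1* in tailbud, at 23.3.

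The set was dominated by a few abundant genes. Together the 87 genes gave 323391 UMIs, or 3.38% of all posterior UMIs against 1.46% of those in anterior epidermis. The 5 most abundant gave 57.8% of these UMIs, and BLAG18000489 alone gave 28.3%. Levels ran from 0.0564 to 95.5 UMIs per 10,000 with a median of 0.521, and 15 members had under 100 UMIs.

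BLAG18000489 ranked 9 among all genes by level in posterior epidermis. It stood at 95.5 UMIs per 10,000 (exact Poisson 95% interval 94.9 to 96.1), at 46.8 in anterior epidermis and at 45.9 in the small type called neural like 2, where it rested on 575 UMIs. It was detected in 97.7% of posterior cells (Clopper-Pearson 95% interval 97.3% to 98.02%) and 97.5% of anterior cells (96.9% to 98.01%). In muscular somites, taken as a background (median 2182 UMIs a cell), it was found in 29.7% of cells (23.1% to 36.9%). With every cell thinned to 500 UMIs these shares became 92.8%, 81.8% and 8.94%, leaving out 548, 78 and 3 shallower cells. It was thus a gene of nearly every epidermal cell whose amount, more than its presence, differed between the 2 epidermal types. Intervals here and below cover counting error only.

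The next members by abundance were found in smaller shares of cells. BLAG19000763 stood at 32.2 UMIs per 10,000 in posterior epidermis, 13.5 in anterior epidermis and 0.868 in muscular somites. BLAG06000500 stood at 26.5, 11.9 and 0.46, and BLAG19000755 at 21.6, 8.93 and 0.29. Once thinned, cells with a UMI of BLAG19000763 were 62.1% of posterior, 35.8% of anterior and 3.91% of muscular somite cells, against 78.1%, 64.97% and 19.8% before thinning. BLAG01001860 (19.4 against 9.57 in anterior epidermis) and BLAG07000021 (19.3 against 6.42) followed. BLAG07000022, BLAG02001291, BLAG07000808 and BLAG16000440 completed the 10 most abundant, at 10.4, 10.2, 7.70 and 7.60 in posterior epidermis.

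**Figure D1:**
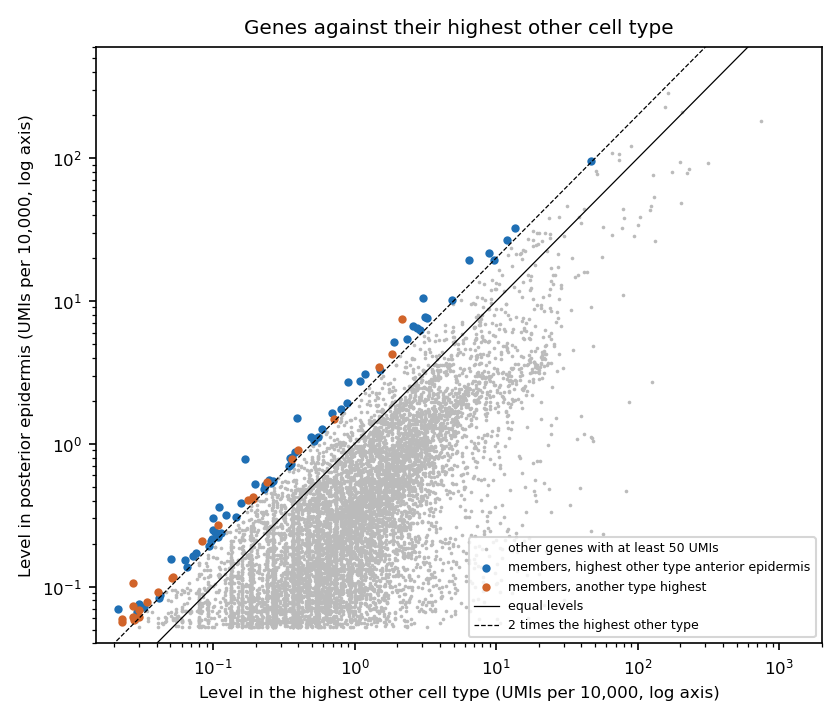
Each point is a gene with at least 50 UMIs in posterior epidermis, with its level there (y, UMIs per 10,000, log axis) against its level in the highest other cell type (x, log axis). The members lie above the dashed line of 2 times, most of them close to it, and blue points, whose highest other type was anterior epidermis, outnumber orange ones 63 to 24.

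Most members sat close to the limit. The median ratio of a member to its highest other type was 2.27, against 0.329 for all 9213 genes, and 11 members exceeded 3 times. Just inside the limit lay BLAG01000351 (2.004), BLAG01000583 (2.02) and BLAG01001860 (2.03), and just outside it BLAG06000633 (1.99), BLAG08000265 (1.99) and BLAG06000459 (1.98). For 74 members the counting interval of the posterior level lay wholly above that of the highest other type. The interval of the ratio itself had its lower bound over 2 for 30 of the 87 members. A stricter reading, with the lower bound of the posterior level over 2 times the highest upper bound of any other type, left 11 genes.

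With all cells, the widest gap was that of BLAG03001024, at 0.787 UMIs per 10,000 against 0.167 in anterior epidermis, a ratio of 4.71 (interval 3.95 to 5.65). Without cells under 500 UMIs the ratio of BLAG18000359 was 3.90, while that of BLAG03001024 fell to 3.18, outside its interval. UMIs of BLAG03001024 fell in 8.49% of posterior cells, 4.08% of anterior cells and 1.10% of muscular somite cells. After thinning these shares were 3.55%, 1.16% and 0% (0 of 179). Outside epidermis this gene reached 1.51 in neural metacell 39, on 7 UMIs from 50 cells, which is above the median of 0.670 over the posterior metacells. BLAG18000359 stood at 1.51 against 0.391, a ratio of 3.87 (3.44 to 4.36), and BLAG07000022 at a ratio of 3.404 (3.26 to 3.55). BLAG08000218 stood at 7.42 in posterior epidermis and 2.08 in anterior epidermis, and its ratio of 3.44 was set by 27 UMIs in neural like 2.

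Among scarcer members, BLAG14000521 had a ratio of 3.25 (2.59 to 4.11) on 343 posterior UMIs and BLAG16000220 one of 3.13 (2.23 to 4.47) on 150. BLAG09000800 had 3.03, BLAG19000758 3.04 and BLAG07000807 2.73. The ratios of BLAG01002561 (3.92, interval 1.06 to 32.8) and BLAG08000271 (3.31, 1.96 to 5.83) rested on 2 and 19 UMIs in their highest other types. When single cells were scaled first and then averaged, those 2 ratios became 1.59 and 2.11. BLAG03001454 went from 2.06 to 1.18 in that setting, which kept 52 of the 87 members and added 14 other genes.

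**Figure D2:**
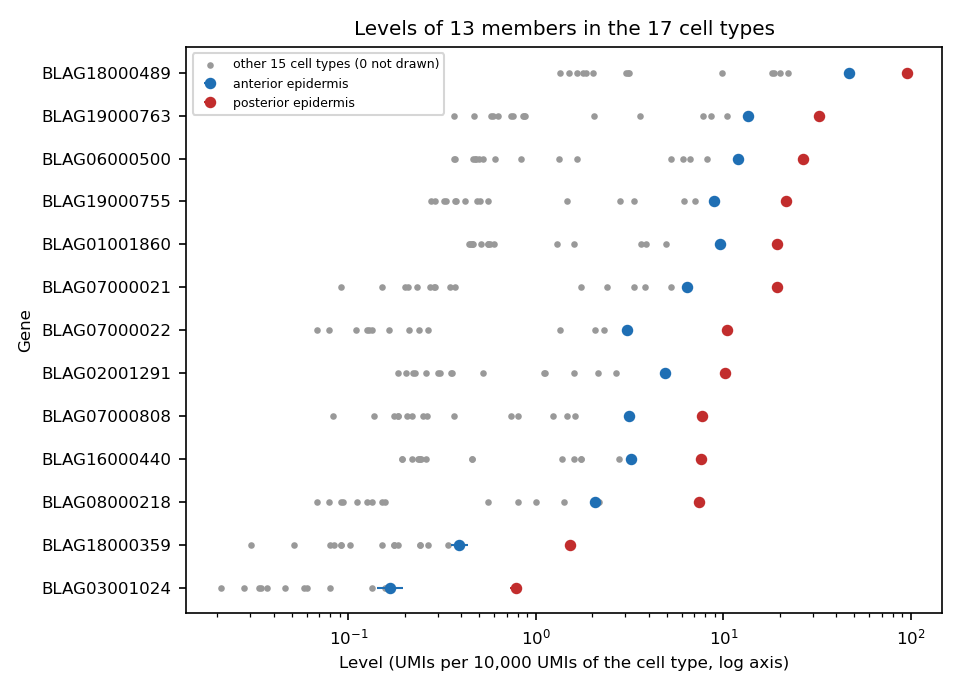
Levels (UMIs per 10,000, log axis) of the 10 most abundant members and of 3 with large ratios, in posterior epidermis (red), anterior epidermis (blue) and the 15 other types (grey), with exact Poisson 95% intervals on the coloured points. Anterior epidermis is second in every line but that of BLAG08000218, where neural like 2 (2.16) is just above it, and the neural like 2 point of BLAG18000489 (45.9) is hidden under the blue one.

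Anterior epidermis came next for most members. For 63 of the 87 members the highest other type was anterior epidermis. Over the 46 members with at least 410 UMIs (a mean of 5 a posterior metacell), the median level in anterior epidermis was 43.2% of that in posterior epidermis (quartiles 38.4% and 46.2%). It was 22.2% in epidermal neural 1, 17.5% in neural like 2, 15.9% in putative neuro-endo, 15.6% in epidermal neural 2 and 10.2% in neural like 1. In each of the 10 remaining types, from tailbud (4.97%) to muscular somites (1.89%), endoderm (2.79%) and Di-Mesencephalic primordium (0%), it was under 6%.

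Those 10 types also show how much of a strongly epidermal transcript appears outside epidermis. Pooled over them, the 46 members stood at a median of 2.81% of their posterior level (1.26% to 18.4%). The keratin genes *Krt13* and *Krt75*, which encode filaments of epithelial cells, stood at 2.72% and 3.35%. *Foxj1*, the regulator of motile cilia, stood at 21.8%. The part of free RNA in the member levels outside epidermis was not tested.

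The same rule returned few genes for the neighbouring tissue. Only 3 genes passed it in anterior epidermis, against 87 in posterior epidermis, 24 in tailbud, 21 in endoderm and 10 in neural cells. Notochord and muscular somites, with far fewer cells, each had more such genes than posterior epidermis. The minimum of 50 UMIs is harder to reach in types with fewer UMIs, so these counts are not on 1 footing. Of the 9213 genes, 4.28% exceeded 2 times their anterior level, and 307 of these 394 genes missed the set because a type other than anterior epidermis came within 2 times of the posterior level or exceeded it, as for *Cdx* and *Wnt1*. The median of all 9213 genes was 0.956 times the anterior level.

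No gene of the lists on epidermal biology was a member. As 0.944% of all 9213 genes were members, 0 in so short a list is near that share. *Tfap2* and *Grhl*, transcription factors of surface ectoderm, stood at 4.00 and 1.19 UMIs per 10,000 in posterior epidermis, 1.27 and 1.28 times their anterior levels, and *Dlx* and *Klf1/2/4* at 0.935 and 0.612 times. *Krt75* was the more abundant keratin at 210 against 205 in anterior epidermis, and *Krt13* stood at 121.5 against 89.3. *Foxj1* (8.75 against 10.7) and *Fhl2*, a LIM domain gene (35.4 against 39.7), were lower in posterior epidermis. In all, 0 of 24 listed genes were members and 14 were above their anterior level, where 44.8% of all 9213 genes were.

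Of the listed genes, the Hes1 genes BLAG11000252 and BLAG11000525 came nearest to the set by the ratio to the highest other type. The other Notch genes stood higher in another type than in posterior epidermis. *Delta* and all 6 listed Hes1 genes were above their anterior level when pooled, and 4 of these 7 exceeded 2 times, which fell to 2 of the 7 within plates: *Delta* at 2.02 and the Hes1 gene BLAG11000894 at 2.38. The other 5 stood between 0.984 and 1.65 times there. The Hes1 gene BLAG11000525 stood at 14.0 in posterior epidermis, 5.77 in anterior epidermis and 9.27 in neural like 2, a ratio of 1.51 to the last. The Hes1 gene BLAG11000252 reached 1.85 times anterior epidermis, its highest other type. The Hes1 gene BLAG11000894 was 2.68 times its anterior level but stood higher in endostyle and club-shaped gland (3.29 against 1.38).

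Markers of other tissues stood lower in both epidermal types than in the types where each was highest. Not all were near 0: *Soxc* stood at 0.709 on 678 posterior UMIs, above the median member level of 0.521, against 3.51 in neural cells. The 13 markers of neural cells, endoderm, notochord, muscle and tailbud ran from 0.00941 to 0.709 UMIs per 10,000 in posterior epidermis, against 1.27 to 27.5 in the types where each was highest. Their summed level was 2.43 in posterior and 1.95 in anterior epidermis. Above their anterior level were 10 of the 13, where 44.8% of all 9213 genes were. Some rested on few posterior UMIs, such as *Neurogenin* (30) and *Mnx* (32), whose counting intervals overlapped between the 2 epidermal types. None of the 13 was at 0. Their part in the member levels was not tested.

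Member levels differed strongly between plates. BLAG18000489 ran from 29.9 to 198 UMIs per 10,000 over the posterior cells of the 40 plates (median 84.97) and from 15.4 to 146.9 over their anterior cells (median 51.8). It was higher in the posterior cells of all 40 plates. Plates with more of it in posterior cells had more of it in anterior cells, with a Spearman rho of 0.87 over the 40 plates, which share embryos and library chemistry. Over the 46 members the median of this rho was 0.548, and it was lowest for BLAG01000322 (0.13) and highest for BLAG06000500 (0.94).

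Plates also differed in their mix of epidermal cells. Posterior cells were 37.02% to 93.3% of the epidermal cells of a plate. This share rose with the posterior level of BLAG07000021 (rho 0.814) and, less closely, with that of BLAG18000489 (0.335), whereas it fell with that of BLAG18000359 (-0.313) and *Krt75* (-0.426). Ratios pooled over plates and ratios within plates are therefore not the same quantity.

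Within plates, posterior cells exceeded anterior cells for every member, but not always by 2 times. The within-plate ratio (Mantel-Haenszel, each plate's posterior cells set against its own anterior cells) had a median of 2.32 over the 87 members, from 1.63 to 4.603, against 2.39 when pooled and against 0.976 for all 9213 genes. It was above 2 for 71 members, where 3.82% of the 9213 genes were. BLAG18000489 fell to 1.78, BLAG06000500 to 1.91, BLAG01001860 to 1.77 and BLAG16000440 to 1.79, so 6 of the 10 most abundant members stayed above 2. BLAG08000271 moved most, from 3.31 to 2.16.

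Gaps widened for some of the other members and narrowed for others. BLAG18000359 went from 3.87 to 4.54 times its anterior level, and BLAG03001024 from 4.71 to 4.37. BLAG01001724 stood at 2.34 pooled and 2.46 within plates, and BLAG18000232 at 2.16 and 2.397. BLAG07000021 narrowed from 3.01 to 2.48, BLAG07000022 from 3.404 to 2.59 and BLAG08000218 from 3.58 to 2.55. BLAG19000763 went from 2.39 to 2.30 and BLAG19000755 from 2.42 to 2.24. Of the listed genes that were no members, the Hes1 gene BLAG11000525 went from 2.43 to 1.60 and *Cdx* from 3.84 to 4.14.

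**Figure D3:**
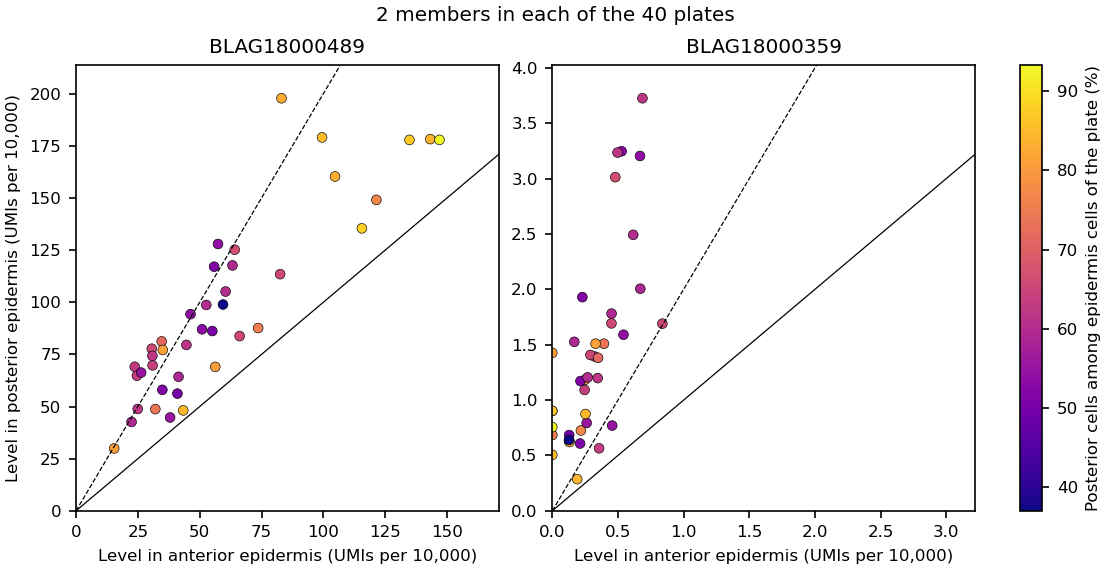
Each point is 1 of the 40 plates, with the level of BLAG18000489 (left) or BLAG18000359 (right) in its posterior cells (y) against that in its anterior cells (x), both in UMIs per 10,000, coloured by the share of posterior cells among its epidermal cells. Solid lines mark equal levels and dashed lines 2 times: BLAG18000489 rises along both axes from 29.9 to 198 in posterior cells and lies on both sides of the dashed line, while BLAG18000359 lies mostly above it.

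The direction was also counted plate by plate, on the UMIs that chose the members, so these counts only describe them. Of the 46 members with at least 410 UMIs, 43 were higher in posterior than anterior cells in at least 35 of the 40 plates, as were 6.85% of the 3198 genes with that many UMIs. The lowest count was 32, for BLAG90000433. In all, 16 of the 87 members were higher in every plate, as were 0.434% of the 9213 genes. Among the 41 scarcer members the lowest count was 20 plates.

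Across metacells the 2 epidermal types overlapped for the members. BLAG18000489 ran from 39.1 to 235 UMIs per 10,000 over the 82 posterior metacells (median 93.4) and from 21.1 to 139.4 over the 37 anterior metacells (median 57.04), and 5 anterior metacells lay above the posterior median. BLAG19000755 ran from 2.58 to 50.2 (median 20.2) against 0.635 to 19.2 (median 7.76), with 0 anterior metacells above the posterior median and 43 posterior metacells above the highest anterior one. Among the 46 members with at least 410 UMIs BLAG18000232 had the most, with 11 of 37 anterior metacells above the posterior median. None of these 46 had all its posterior metacells above all anterior ones, and the median member had 3 anterior metacells above its posterior median.

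Members were unevenly spread over posterior epidermis. Unevenness was taken as the coefficient of variation (CV) of a gene over the 82 metacells beyond counting error. Its median was 0.557 over the 46 members and 0.307 over all 3198 genes with at least 410 UMIs, and 27 of the 46 exceeded 0.5, as did 12.5% of the 3198. The metacells were built by clustering such genes and the members were chosen for a difference between clusters, so this is a description.

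BLAG01001724, BLAG18000359 and BLAG18000232 had the highest CVs. BLAG01001724 had a CV of 1.12 and ran from 0.852 to 41.5 UMIs per 10,000 with a median of 3.88. BLAG18000232 had a CV of 1.11 and ran from 0 to 38.7 with a median of 3.53. These 2 genes peaked in metacell 98 and followed each other over the metacells (rho 0.786). BLAG18000359, with a CV of 1.11, peaked in the same metacell, and BLAG08000218 (0.936) and BLAG06000463 (0.926) came next. The ratio of BLAG06000463 to its highest other type, 2.27, rested on 3 UMIs in putative neuro-endo and became 1.24 without cells under 500 UMIs and 3.90 without plate 10.

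At the other end, BLAG10000208 had a CV of 0.288, running from 0.131 to 1.98 with a median of 0.673. BLAG03001454, BLAG02001873, BLAG02001652 and BLAG13000859 lay between 0.339 and 0.369. The CVs of these 5 genes were close to the median of 0.307 for all 3198 genes.

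Part of the unevenness moved with plates. A metacell drew its cells from 5 to 25 of the 40 plates, and each gene's expected level was computed from the plates its cells came from. Around that expectation the median CV was 0.391 over the 46 members and 0.167 over all 3198 genes, with 13 members and 58 genes above 0.5. BLAG18000489 went from 0.406 to 0.168 and BLAG90000433 from 0.708 to 0.195, while BLAG01001724 went from 1.12 to 0.967 and BLAG12000568 from 0.844 to 0.835. A metacell's own cells enter its expectation, which can lower this CV.

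The 46 members were clustered by the rho of their levels over the 82 metacells and cut into 4 groups, a preset number. This cut gave 2 large groups, with 2 members apart. The first group held 19 members, among them BLAG18000489, BLAG19000763, BLAG06000500, BLAG19000755, BLAG01001860, BLAG07000021, BLAG07000022, BLAG16000440, BLAG08000218 and BLAG19000758. The second held 25, among them BLAG02001291, BLAG07000807, BLAG07000808, BLAG01001724, BLAG18000232, BLAG18000359, BLAG06000463 and BLAG01000583. The median rho was 0.374 within the first group, 0.384 within the second and -0.047 between them. BLAG03001024 and BLAG02001652 each stood alone, and the groups were cut from these same values.

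**Figure D4:**
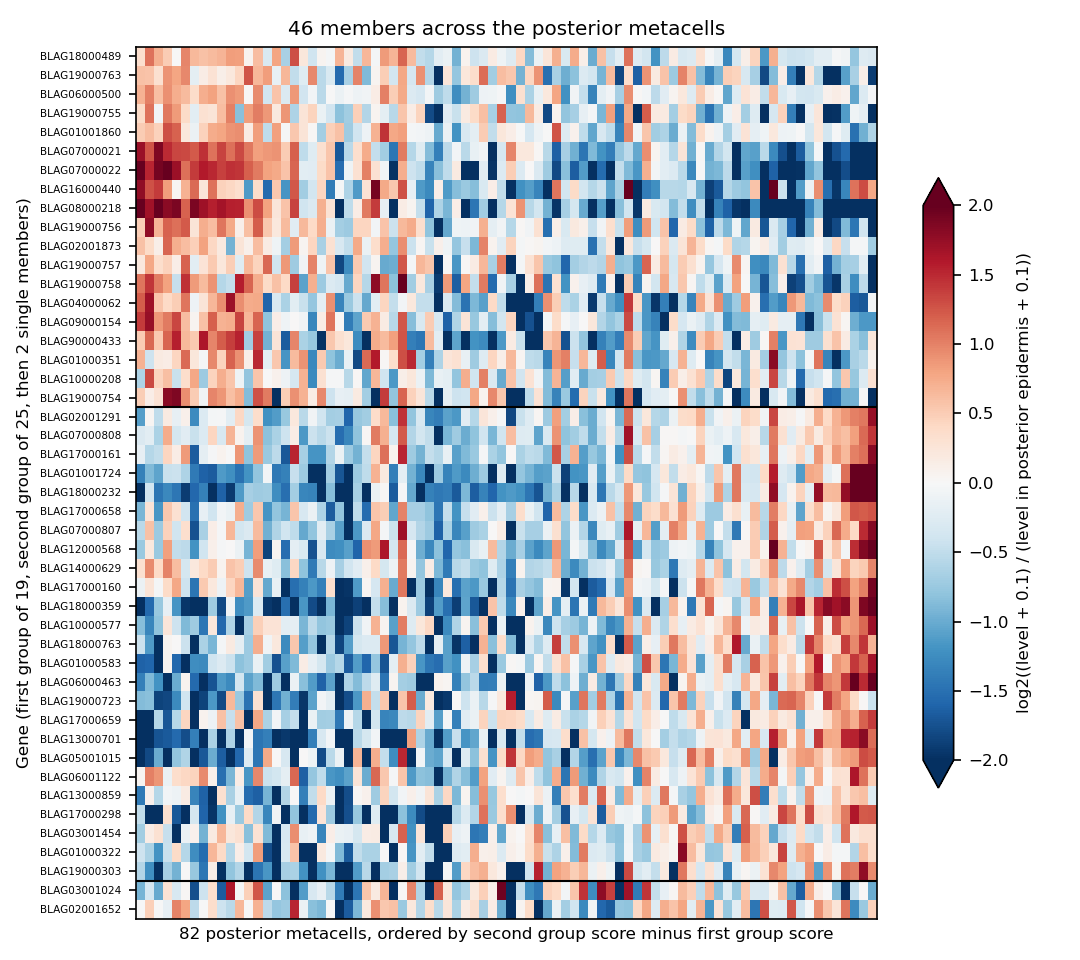
Level of the 46 members with at least 410 UMIs (rows) in each of the 82 posterior metacells (columns), as log2 of its ratio to the level in all posterior epidermis after adding 0.1 UMI per 10,000 to both. Columns are ordered by the second group's score minus the first group's, which are plotted from these same rows, so the opposed red corners follow from the order.

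Each group was summarised by a score, the mean over its members of the level in a metacell relative to the gene's mean. The first score ran from 0.464 to 2.13 and was highest in a metacell of 60 cells from 12 plates. The second ran from 0.339 to 3.12 and was highest in metacell 98 (cells from 19 plates), where 11 of its 25 members peaked. With metacells 97 and 99 included, 16 of the 25 peaked in these 3 metacells. The scores themselves had a rho of -0.137 over the 82 metacells.

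The second group moved with the keratins and with posterior markers. Its score had a rho of 0.61 with *Krt13*, 0.521 with *Krt75*, 0.504 with *Cdx*, 0.406 with *Wnt1* and 0.404 with *Dlx*, and -0.383 with *Tlx*, a homeobox gene used here as a sensory marker. All 25 members had a positive rho with *Krt13* (0.192 to 0.629), 24 had one with *Cdx*, and 0 had one with *Tlx*. The 25 were grouped on these same levels, so these counts are not separate observations. The share of all genes with such signs was not computed. Single members went further: BLAG19000723 had a rho of 0.68 with *Cdx* and BLAG18000359 one of 0.64 with *Wnt1*. Within plates the score's values were 0.576 for *Krt13*, 0.452 for *Krt75*, 0.593 for *Cdx*, 0.39 for *Wnt1* and -0.366 for *Tlx*. For these 5 markers the relation was thus about as large within plates as pooled. The score's rho with *Delta*, also a sensory marker, was -0.149 pooled and -0.092 within plates. With *Elav*, another, it was -0.157 and -0.021.

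The first group's strongest relations to the markers were not kept within plates. Pooled, its score had a rho of -0.524 with *Krt75*, -0.489 with *Dlx*, -0.441 with *Fhl2*, 0.453 with the Hes1 gene BLAG11000525 and 0.377 with *Pax4/6*. Within plates these became 0.063, -0.048, 0.452, -0.00099 and 0.0011. The other anterior marker read here, *Tmprss15*, stood at -0.148 pooled and -0.283 within plates. The other Hes1 genes ran from 0.047 to 0.25 pooled and from -0.301 to 0.039 within plates. *Tlx* (0.352 pooled, 0.19 within plates) and *Wnt1* (-0.329 and -0.162) kept their signs at smaller size. The other 2 sensory markers differed from *Tlx*: *Delta* stood at 0.096 pooled and -0.113 within plates, and *Elav* at -0.021 and -0.265. The score had a rho of 0.765 with the score expected from plates alone (0.499 for the second group), and the expected scores ran from 0.493 to 1.59 for the first group and from 0.806 to 1.33 for the second. The members of the first group still moved together, with a median rho of 0.265 within plates, against 0.399 in the second group.

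**Figure D5:**
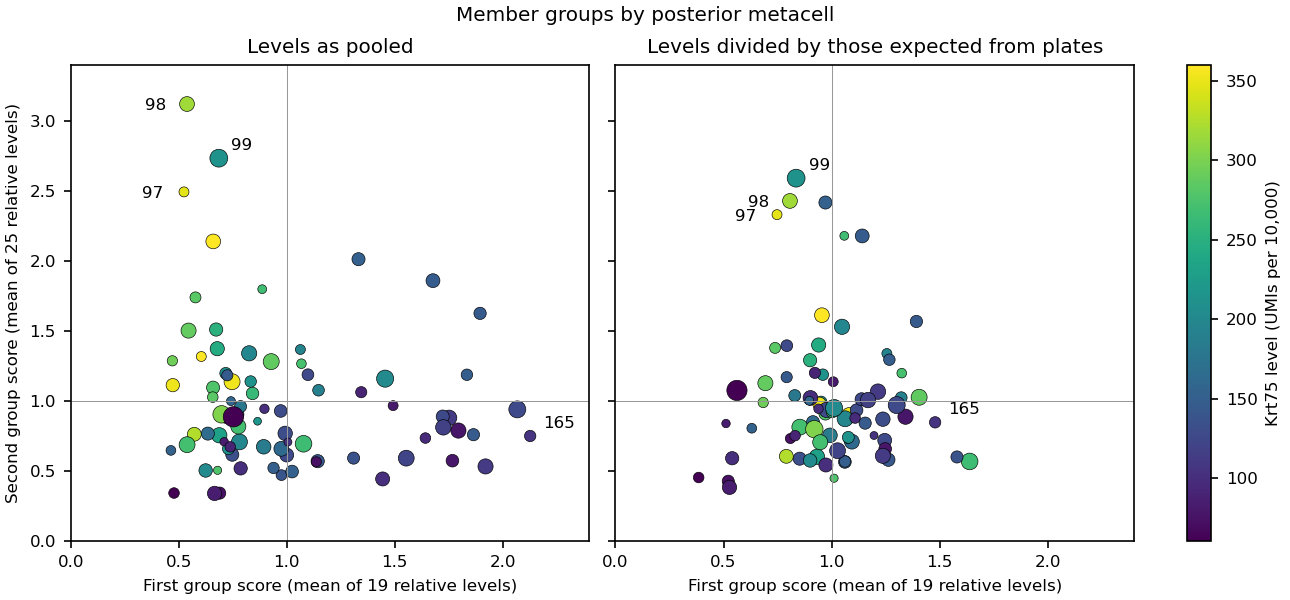
Scores of the first group (x, 19 members) and second group (y, 25 members) in each of the 82 posterior metacells, as pooled (left) and with levels divided by those expected from plates (right). Point area is proportional to the number of cells and colour is the *Krt75* level. Metacells 97, 98 and 99 stay high on the second score in both panels, while the highest first score moves from 2.13 to 1.64.

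Depth of the metacells was related to single members but not in 1 direction. Their correlation with the median UMIs a cell (Spearman) ran from -0.479 for BLAG18000489 to 0.408 for BLAG13000701, and it was -0.224 for the first score and 0.131 for the second. Among single members it was positive for 3 of the 19 in the first group and for 19 of the 25 in the second. Its sign thus ran in part along the split of the groups. Metacell 98 had a median of 1595 UMIs a cell and the metacell highest on the first score one of 1037.5. The part of depth in these patterns was not tested.

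The 2 groups were also read over anterior epidermis, whose metacells were not used to form them. Over the 37 anterior metacells the median rho was 0.27 within the first group, 0.374 within the second and 0.078 between them. The second score had a rho of 0.787 with *Krt13* and 0.547 with *Krt75* there, but of only 0.207 with *Cdx* and 0.267 with *Wnt1*. The first score had a rho of -0.369 with *Pax4/6*, opposite in sign to its pooled value in posterior epidermis. With *Tmprss15* it had one of -0.431, of the same sign as its pooled value there. Plates differ between anterior metacells as well, and no within-plate value was computed for them.

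Several members had neighbouring identifier numbers. In 11 runs of members whose numbers differ by at most 10 there were 27 of the 87 genes. No such count was made for other genes, so whether 27 is many cannot be told. BLAG07000021 and BLAG07000022 followed each other closely over the 82 metacells (rho 0.916), and both followed BLAG08000218, from another number series (rho 0.911 and 0.945). BLAG07000807 and BLAG07000808 had a rho of 0.783, and BLAG18000351 and BLAG18000359 one of -0.306. Identifier numbers are not positions, and no coordinates were used.

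The longest run lay between BLAG19000749 and BLAG19000763, with 7 members. BLAG19000754 to BLAG19000758 were all members, at 0.541, 21.6, 4.23, 2.77 and 2.72 UMIs per 10,000 in posterior epidermis and 0.209, 8.93, 1.63, 1.10 and 0.893 in anterior epidermis. BLAG19000763 and BLAG19000755 had the highest rho of the run, 0.85. The genes numbered between were not all alike: BLAG19000759 was 2.48 times its anterior level but stood at 0.479 in neural like 2 against 0.618, and BLAG19000762 had 4 posterior UMIs. Reads with up to 20 matches were allowed in mapping, and whether they were counted is not given in the sources used here, so levels of near-identical copies in such runs would be uncertain.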

How the data were processed

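MARS-seq libraries of 40 plates were mapped by the authors with STAR, up to 20 places a read, to the *B. lanceolatum* assembly with its annotation version 3. UMI counts over exons, not normalized, were deposited for 14586 cells after the authors removed empty wells and 1 metacell of few UMIs. The authors' cell type and metacell labels were used as deposited. The deposited metacell scores (linear fold changes, by Metacell, of a gene's regularized geometric mean over its median in the 176 metacells) served as an alternative only. The plate is the number in each cell's name. The authors excluded doublets by scatter gates. No doublet caller was run here, and 286 cells past 4 times their type's median depth were kept.

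Levels are summed UMIs per 10,000 with exact Poisson 95% intervals, and ratio intervals are exact given the summed counts. With 1 sample, no test was made. The members, lists and measures were chosen with earlier results of these data known. Within-plate ratios, plate expectations and settings without single metacells were chosen after seeing the data. Genes named were the 10 most abundant, the 10 of largest ratio not yet named, the 5 most and least uneven, and those nearest the limit. Others, such as BLAG12000568, BLAG19000723, BLAG90000433, BLAG13000701 and the genes of identifier runs, were picked with their values in view. The RefSeq table matched 0 of 27073 identifiers. The rule, the CV with and without plate expectations and the within-plate ratio were tested on simulated data. The other statistics were not. Python 3.11.15, numpy, scipy and pandas were used.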

Additional observations from a re-analysis of the deposited data

How the results depend on the processing

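The count of 87 genes moved by over 1.5 times with the limits of the rule. It was 754 with no minimum of UMIs, 257 at over 1.5 times, 11 at over 3 times, 11 by interval bounds, 394 against anterior epidermis alone and 1224 against all other cells pooled. It was 97 with a minimum of 20 UMIs, 72 with 100, 66 with single cells averaged, 82 with the anterior reference within plates (71 of the 87 shared), 82 to 91 with each plate left out and 82 to 94 with each posterior metacell left out. In every one of the 40 plate settings 61 of the 87 members passed, and in every one of the 82 metacell settings 70 did. The median ratio of 2.27 stayed between 2.14 and 2.30 under its alternatives. For the 30 named members, 17 of 120 ratios under the alternatives other than single plates left the counting interval of the ratio first given, and 14 of these 17 came from averaging single cells.

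The median CV of 0.557 was 0.371 on the deposited scores and 0.391 within plates. The median rho between the 2 large groups, -0.047, was -0.058 on deposited scores, -0.058 without metacells of under 50 cells, -0.030 without metacell 98 and 0.049 within plates, a change of sign in a value near 0. The rho of the first score with *Wnt1*, -0.329, was -0.162 within plates. The cause of these shifts was not tested. No paired analysis was possible because the cells are not mapped to samples S1 and S2, and the accessibility samples were not analysed here. With 1 sample, differences between embryos cannot be told apart from counting and plate effects, and the ratio's counting interval lay wholly above 2 for only 30 of the 87 members. In 16 the highest other type had under 10 UMIs.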
